A study of Bos taurus with 48 samples.

Results

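The oxytocin receptor gene OXTR was followed through the endometrium of 22 lactating Holstein-Friesian dairy cows at day 17, when a cyclic cow approaches luteolysis and a pregnant cow must prevent it. Their ancestry was mixed, from New Zealand and North America, and the labels do not give it for each cow. The array carried 21475 probes, and 1 of them (A_73_100134, printed as 2 spots per array) was named for OXTR in its gene name or description, which makes OXTR 1 of the 14689 genes that could be given a name from the reference table. The oestrous cycles of all cows had been synchronised. A grade 1 embryo was transferred to 12 cows on day 7, and all 12 were pregnant when tissue was taken, while the other 10 cows were cyclic and received no embryo. From each cow both caruncular endometrium (the aglandular patches where the placenta will attach) and intercaruncular endometrium (the glandular tissue between them) were taken, which gave 44 samples in 4 groups. The labels class the embryos as large in 7 cows (over 20 cm and over 75 mg) and small in 5 cows (under 20 cm and under 40 mg), and the pregnant cows as fertile in 6 and sub-fertile in 6. How fertility was scored, and the age of the cows, are not given in the sources used here. Of the 6 fertile cows 3 carried a large embryo, and of the 6 sub-fertile cows 4 did.

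Oxytocin from the corpus luteum and the pituitary binds OXTR on the uterine epithelium, and the receptor signals through Gq, phospholipase C and calcium to release arachidonic acid, which is turned into prostaglandin F2α. Pulses of prostaglandin F2α end the life of the corpus luteum in a cyclic ruminant. In a pregnant ruminant the conceptus secretes interferon tau, a type I interferon that acts on the endometrium and is known for holding down the receptors for oestrogen and oxytocin. Receptor, interferon-response and prostaglandin genes were therefore described beside OXTR.

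Cy5-labelled RNA of a sample competed with a Cy3-labelled mixture of every sample, the pool, on the same array, so that a level below is a log2 ratio of sample to pool and a value of 0 equals the pool. On the 48 arrays (4 caruncular samples were hybridised again) all 96 OXTR spots were well above background in both channels, none was saturated and none was flagged as an outlier. The OXTR ratios of the 2 spots of an array differed by 0.066 on the log2 scale at the median and by 0.41 at most. The repeat arrays of the same sample differed by 0.0050 to 0.051. The signal of the pool at OXTR ran from 1339 to 3350 units over the arrays, while the sample signal ran from 135 to 9958 units. Between 68.8% and 84.0% of spots were above background on an array. Markers of epithelium, stroma, smooth muscle and endothelium were detected in both tissues, and the conceptus genes IFNT and PAG11 were above background in 0 of the 44 samples. Of the 18 genes in the conceptus list 3 had enough signal to be tested, TFAP2C among them. Whether conceptus tissue was present in the samples was not tested.

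OXTR was 7.91-fold lower in caruncular and 7.69-fold lower in intercaruncular endometrium of pregnant than of cyclic cows. In caruncular endometrium the 10 cyclic cows had log2 ratios from -0.71 to 2.13 with a median of 0.83, and the 12 pregnant cows had ratios from -3.59 to -1.11 with a median of -2.13. All 12 pregnant cows lay below the lowest cyclic cow. The group means were 0.81 ± 0.84 (SD, n = 10) and -2.18 ± 0.72 (SD, n = 12). The difference of -2.98 on the log2 scale (SE 0.31, 95% interval -3.64 to -2.33) had an adjusted p of 3.68e-07 in limma over the 14690 probes tested. It was the second largest fall of all probes and ranked 100 by p. A probe was called if its adjusted p was under 0.05 and its change reached 1.5-fold. In this comparison 9.99% of probes were called, of all probes 4.21% as lower and 5.77% as higher. In 0.306% of probes every pregnant cow lay below every cyclic cow. A permutation test of OXTR alone gave p = 2e-05, the smallest that 100000 resamples can give.

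In intercaruncular endometrium the 10 cyclic cows had log2 ratios from -0.59 to 2.25 with a median of 1.05, and the 12 pregnant cows had ratios from -3.88 to 1.03 with a median of -2.52. Here 10 of the 12 pregnant cows lay below every cyclic cow, and the other two lay within the cyclic range. The means were 0.93 ± 0.93 (SD, n = 10) and -2.01 ± 1.37 (SD, n = 12). The difference of -2.94 (SE 0.48, 95% interval -3.93 to -1.96) had an adjusted p of 0.000183 in limma and was again the second largest fall of all probes. In this tissue 7.24% of probes were called, 3.25% as lower and 3.99% as higher. In the bulk tissue, fewer cells with the receptor and less receptor RNA per cell cannot be told apart.

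**Figure D1:**
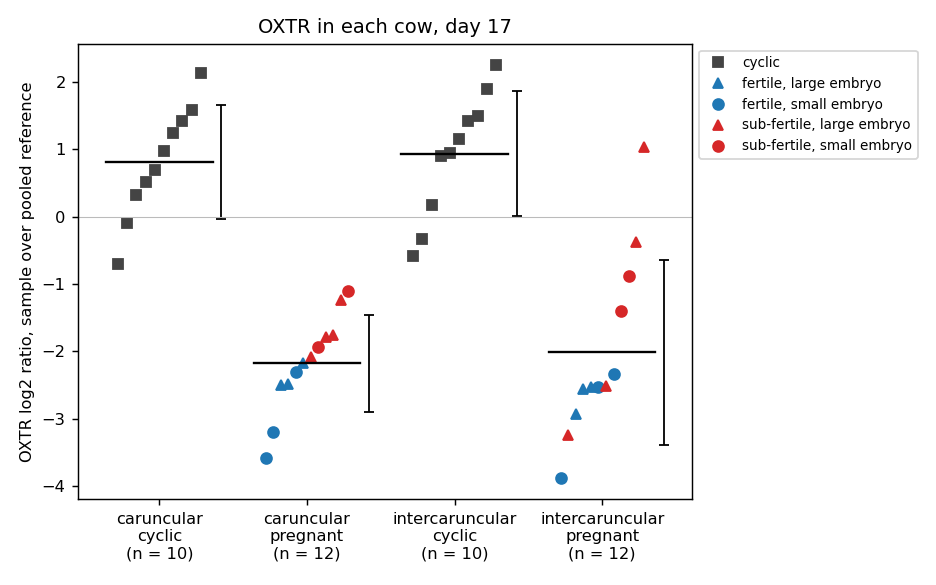
The log2 ratio of OXTR to the pooled reference (y axis) is plotted for each cow in the 4 groups, with squares for cyclic cows, triangles for large and circles for small embryos, and blue for fertile and red for sub-fertile cows. Horizontal lines are group means and bars are ± 1 SD. In caruncular tissue all 12 pregnant cows lie below the cyclic cows, and in intercaruncular tissue 10 of 12 do.

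The slide on which a sample was hybridised moved with the cow groups, since most slides held cows of 1 state. With the slide as a fixed block, which rests on 1 slide per tissue with 3 pregnant cows and 1 cyclic cow, the caruncular difference was -2.16 (adjusted p = 0.391 in limma) and the intercaruncular difference was -0.44 (adjusted p = 0.932 in limma). The cyclic cow on that intercaruncular slide was the lowest of its group at -0.59, and the highest of the pregnant group, at 1.03, was on it too. The caruncular arrays of another slide, 2 of pregnant and 1 of a cyclic cow, differed by -1.62. Of these, 1 pregnant array and the cyclic array were repeats of samples also hybridised on other slides. With the slide as a random block, which also uses the differences between slides, the values were -2.89 (adjusted p = 1.61e-05 in limma) and -2.46 (adjusted p = 0.0172 in limma). Within the larger scan batch of each tissue, 11 arrays of pregnant cows against 9 of cyclic cows, the means were -2.26 against 0.74 in caruncular and -2.16 against 0.93 in intercaruncular tissue. The smaller batch gave differences of -2.10 in caruncular (2 arrays against 4) and -1.32 in intercaruncular tissue (1 against 1). Most of these caruncular arrays were repeats of samples already in the larger batch, so the 2 batches are not independent. Between most of the cows, slide and state cannot be told apart.

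The level of OXTR did not separate the 2 tissues. Caruncular less intercaruncular tissue gave -0.12 in cyclic cows (95% interval -0.90 to 0.65, adjusted p = 0.827 in limma), and -0.16 in pregnant cows (95% interval -1.03 to 0.71, adjusted p = 0.774 in limma). Of all probes 33.5% in cyclic and 48.5% in pregnant cows passed an adjusted p of 0.05 between the tissues. These fits did not pair the 2 tissues of a cow. With the cow as a fixed block the SE was 0.19 in place of 0.37 in cyclic cows. In pregnant cows it was 0.27 in place of 0.42. Under this block 7940 probes in cyclic and 9028 in pregnant cows passed, of 14690, and OXTR did not. Caruncular tissue was the lower in 7 of 10 cyclic and 5 of 12 pregnant cows. Ordered by mean, the groups ran from intercaruncular cyclic through caruncular cyclic and intercaruncular pregnant to caruncular pregnant, and neighbours in this order of the same state differed by less than their spread. The pregnancy differences of the tissues were -0.04 apart (95% interval -1.23 to 1.15, adjusted p = 0.999 in limma), an interval that holds ratios of effects from 0.426 to 2.22. In that comparison 0.0204% of probes passed the threshold. It too was fitted without pairing. With the cow as a fixed block its SE was 0.36 in place of 0.59, and 150 probes passed.

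The tissues of a cow tended to share their level. Across the 10 cyclic cows the caruncular and intercaruncular ratios were correlated with Pearson's r = 0.72 (permutation p = 0.0185) and Spearman's rho = 0.73 (permutation p = 0.0203). Without the 2 cyclic cows farthest from the caruncular median r was 0.44. Leaving out extreme cows narrows the range, which can itself lower r, so how far the relation rested on them cannot be told. Across the 12 pregnant cows r was 0.67 (permutation p = 0.0171) and rho was 0.69 (permutation p = 0.0165), and r was 0.64 without the 2 farthest cows. Adjusted over the 2 relations, Pearson's p was 0.0185 in both. The cows that shared a slide in one tissue also shared one in the other. With each such set of cows at its own mean, r was 0.86 over 8 cyclic cows in 2 sets and 0.38 over 11 pregnant cows in 3 sets. The same cows had 0.85 and 0.61 without that step.

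**Figure D2:**
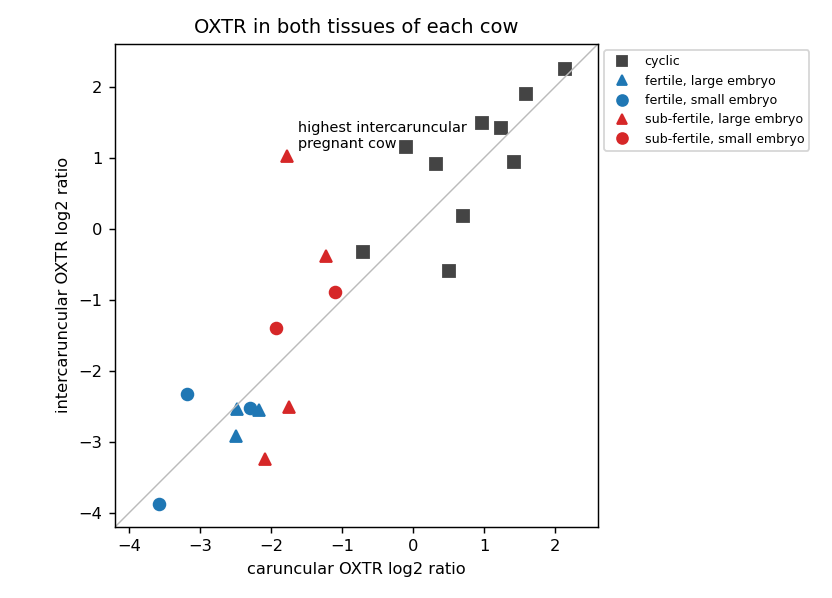
Each point is a cow, with its caruncular OXTR log2 ratio on the x axis and its intercaruncular ratio on the y axis, and the grey line marks equal levels. Colours and symbols are as in the plot of OXTR by group, and the labelled pregnant cow lies far above the line, at -1.78 and 1.03.

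A sub-fertile cow with a large embryo was the widest exception. Its caruncular ratio of -1.78 lay inside the pregnant group, while its intercaruncular ratio of 1.03 was higher than that of 5 of the 10 cyclic cows. Caruncular less intercaruncular tissue was -2.81 in this cow, the largest size of the 22, and the next was -1.25 in a cyclic cow. Its intercaruncular interferon response was that of a pregnant cow: the mean log2 ratio over the 50 interferon-response genes was 0.04, against -0.66 to 0.71 in the pregnant and -1.92 to -1.53 in the cyclic cows. The same sample had the highest mean over 14 epithelial genes (0.48, group range -0.32 to 0.48) and the lowest over 11 smooth muscle genes (-1.49, group range -1.49 to 0.09) and 10 stromal genes (-0.50, group range -0.50 to 0.20). Its caruncular sample, with an OXTR level inside the pregnant range, held the same places in its group (epithelium 0.08, the highest, and smooth muscle -1.26 and stroma -0.23, the lowest). The part of this tissue make-up in its OXTR level was not tested. Without this cow the intercaruncular pregnancy difference was -3.22. Another sub-fertile cow with a large embryo was the other pregnant cow within the intercaruncular cyclic range at -0.38, above 1 of the 10 cyclic cows, and its array was scanned in the smaller batch.

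OXTR did not differ detectably between cows with a large and a small embryo. In caruncular tissue the 7 cows with a large embryo had ratios from -2.50 to -1.23 (median -2.08) and the 5 with a small embryo from -3.59 to -1.11 (median -2.30). The difference of 0.42 (95% interval -0.40 to 1.25) had an adjusted p of 0.879 in limma and an exact two-sided permutation p of 0.333. In intercaruncular tissue the ranges were -3.25 to 1.03 (median -2.54) and -3.88 to -0.89 (median -2.33). The difference of 0.33 (95% interval -1.29 to 1.95) had an adjusted p of 0.847 in limma and an exact two-sided permutation p of 0.720, and its sign turned when the cow with the highest or the one with the lowest intercaruncular level was left out (-0.15 and -0.09). In caruncular tissue no probe passed the adjusted threshold (percent called 0) and 6.9% had an unadjusted p under 0.05. In intercaruncular tissue 3.69% of probes passed it and 21.6% had an unadjusted p under 0.05.

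Either class of embryo came with low OXTR when it was set against the same 10 cyclic cows. In caruncular tissue the difference was -3.23 with a small embryo (adjusted p = 0.000397 in limma) and -2.81 with a large one (adjusted p = 7.84e-06 in limma). Every cow of either class lay below the cyclic cows, as was so for 0.66% of probes with small and 1.85% with large embryos. In intercaruncular tissue the difference was -3.14 with a small embryo (adjusted p = 0.00170 in limma), again with no overlap (0.497% of probes), and -2.81 with a large embryo (adjusted p = 0.00138 in limma), where 5 of the 7 cows lay below every cyclic cow. The exact permutation p of OXTR alone in these comparisons ran from 0.000103 to 0.00154. Both comparisons of a tissue share their cyclic cows. For small embryos 3.53% and 1.63% of probes were called in caruncular and intercaruncular tissue, against 12.4% and 11.4% for large ones. The comparisons had 5 cows with a small and 7 with a large embryo, so they differ in power and the shares cannot be compared directly. Called as lower were 0.681% and 0.374% for small and 6.03% and 5.45% for large embryos. With the methods' t-test for unequal variances, adjusted over all probes, the calls for small embryos were lost at adjusted p = 0.0580 in caruncular and 0.0591 in intercaruncular tissue.

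**Figure D3:**
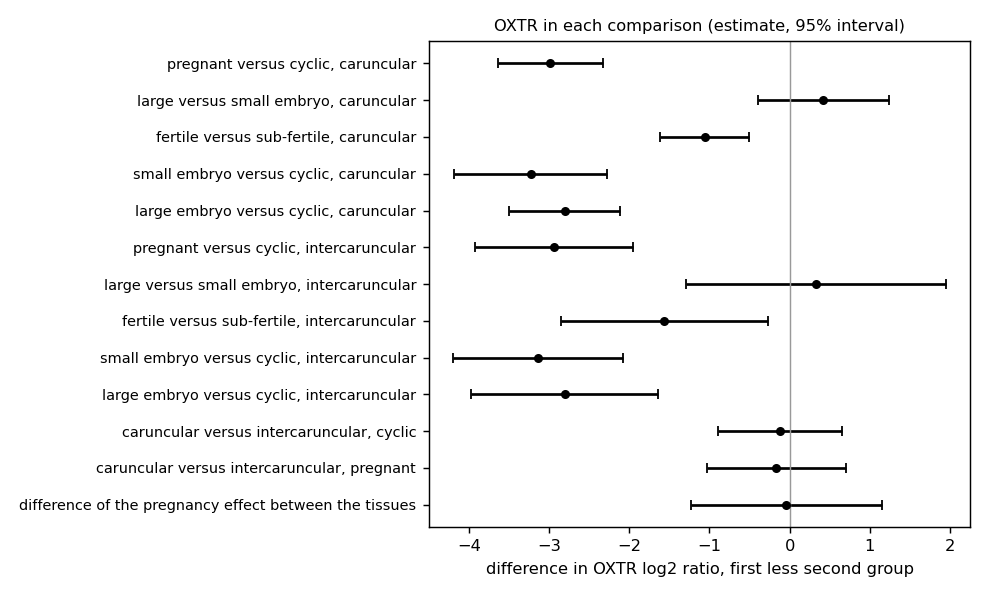
The difference in OXTR log2 ratio (x axis, first less second group) is plotted for each comparison with its 95% interval from limma. Intervals that compare the tissues come from fits without pairing by cow. The intervals of all comparisons of pregnant or embryo-bearing with cyclic cows end at or below -1.64, and those of tissue and of embryo size span 0.

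Fertile pregnant cows had less OXTR than sub-fertile ones, a difference that did not pass the adjustment over all probes. In caruncular tissue the 6 fertile cows had ratios from -3.59 to -2.17 (median -2.50) and the 6 sub-fertile cows from -2.08 to -1.11 (median -1.77). Every fertile cow lay below every sub-fertile cow, although the nearest pair was only 0.09 apart (-2.17 and -2.08). The mean differed by -1.06 (-2.71 ± 0.56 against -1.65 ± 0.39, SD, n = 6 each), which is 2.08-fold. In limma this had p = 0.00122 and an adjusted p of 0.260, with a rank of 66 by p among 14690 probes. In 0.517% of probes every fertile cow lay below every sub-fertile cow. The exact two-sided permutation p of OXTR alone was 0.00216, the smallest that 6 against 6 allows, and 0.00371 after adjustment over the 12 such tests made on OXTR. No caruncular probe reached an adjusted p under 0.05 (percent called 0), either in limma or in the methods' t-test, while 13.8% had an unadjusted p under 0.05.

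In intercaruncular tissue the fertile cows had ratios from -3.88 to -2.33 (median -2.55) and the sub-fertile cows from -3.25 to 1.03 (median -1.14), and the classes overlapped. All 6 fertile cows lay below the mean of the sub-fertile cows, and 1 of them below every sub-fertile cow. The spread among sub-fertile cows (SD 1.53) was wider than among fertile cows (SD 0.57). The difference of -1.56 (95% interval -2.85 to -0.27) had an adjusted p of 0.291 in limma and an exact two-sided permutation p of 0.0368 (0.0552 after adjustment over the 12 tests). It was the tenth largest fall among probes in that comparison, of which 0.0477% were called and 13.6% had an unadjusted p under 0.05. Against the cyclic cows, all 6 fertile and 4 of 6 sub-fertile cows lay below the cyclic range. The fertility effect differed between the tissues by 0.50 within cows (exact permutation p = 0.481).

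Slide and fertility overlapped in part, since 4 of the fertile cows had a slide of their own in each tissue. On the slide that held 2 fertile and 2 sub-fertile cows the difference was -0.91 in caruncular tissue (-2.75 against -1.84), with no overlap, and -0.48 in intercaruncular tissue (-2.43 against -1.96), with overlap. Within the larger scan batch, with 6 fertile and 5 sub-fertile cows, it was -0.97 and -1.39. The caruncular arrays of 1 fertile and 1 sub-fertile cow on another slide differed by -0.96. The fertile array was a repeat of a sample already in the larger scan batch. With the slide as a fixed block the unadjusted p in limma was 0.0886 in caruncular and 0.668 in intercaruncular tissue, so that neither passed 0.05, and the permutation tests above do not take the slide into account. With embryo size as a covariate the call was the same in both tissues. Interferon-response genes moved with the same split: 47 of 50 were higher in fertile cows in caruncular and 39 of 50 in intercaruncular tissue, by 0.57 and 0.27 at the median, against medians of -0.03 and 0.01 and shares of 45.0% and 51.7% higher over all probes. None of the 50 was called, and 26 and 1 had an unadjusted p under 0.05. Cell type markers split with fertility in intercaruncular tissue as well: 4 of 14 epithelial genes were higher in fertile cows (median -0.34) and 11 of 11 smooth muscle genes were (median 0.35), none of them called. In caruncular tissue the counts were 6 of 14 (median -0.08) and 9 of 11 (median 0.09). Of 9 endothelial genes 0 were higher in fertile cows in caruncular (median -0.24) and 2 in intercaruncular tissue (median -0.09). Of 10 leukocyte genes 3 and 4 were higher, and of 10 stromal genes 6 in each tissue. Of the 3 conceptus genes tested, 0 and 2 were higher, and 1 was called in intercaruncular tissue, TFAP2C, with a difference of -1.80 (adjusted p = 0.00893 in limma), named after its value was seen. The part of the interferon response and of these markers in the OXTR difference was not tested.

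The probe most like OXTR was EE981171, a transcript without a gene name that the array file places on chromosome 22, where the ARS-UCD2.0 reference table also places OXTR. After each of the 4 groups was set to its mean, the 2 probes were correlated over the 44 samples with r = 0.96, and without that step with r = 0.97. As a correlation over samples that share the pool and partly the slide, this is a description. For comparison, the 99th percentile of r within groups over 14359 probes with a value in every sample was 0.47. EE981171 fell by 2.90 in caruncular tissue (adjusted p = 1.65e-06 in limma) and by 3.28 in intercaruncular tissue (adjusted p = 0.000158 in limma). Its ratio lay within 0.24 of that of OXTR in the median sample and within 0.91 in all, and in the cow whose tissues lay farthest apart it was -2.13 in caruncular and 0.32 in intercaruncular tissue. The transcript's distance from OXTR was not measured here, because the build of its position is not given.

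**Figure D4:**
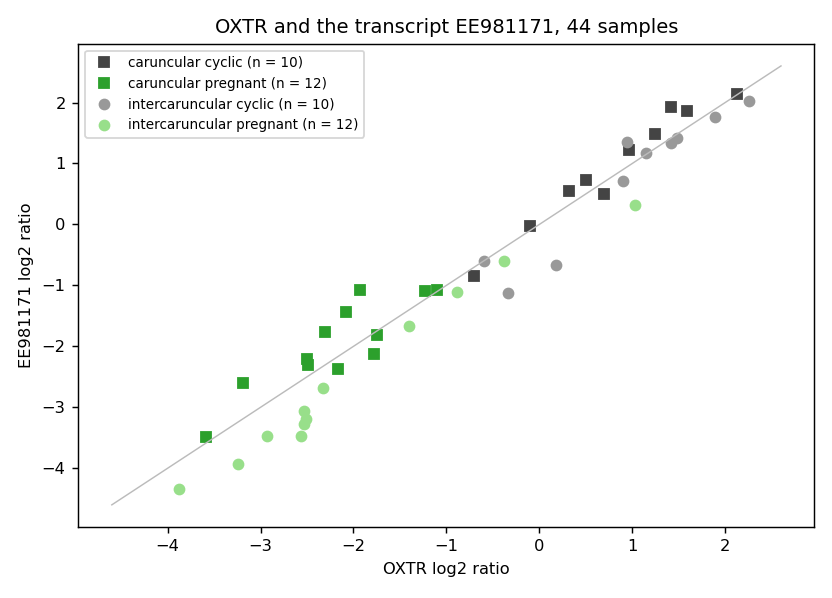
The log2 ratio of the transcript EE981171 (y axis) is plotted against that of OXTR (x axis) for 44 samples, with the grey line at equal ratios. Points of all 4 groups lie along the line, and all 12 intercaruncular pregnant samples (light green) lie below it.

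Among the genes with a name, KCNK12, a two-pore potassium channel, followed OXTR most closely (r = 0.79 within groups, 0.87 over 44 samples). It fell by 2.38 in caruncular (adjusted p = 9.30e-05 in limma) and by 1.36 in intercaruncular tissue (adjusted p = 0.0254 in limma). Next were the unnamed transcript CB220965 (r = 0.78), ATF7IP2 (0.75) with LOC618129 (0.73), whose array description names the same ATF7IP2-like protein, MSTN, the muscle growth inhibitor myostatin (0.75), INA, a neuronal filament protein (0.69), and NPNT, the matrix protein nephronectin (0.69). ATF7IP2, LOC618129, MSTN, INA and NPNT fell in caruncular tissue, with differences of -1.39, -1.46, -1.53, -1.29 and -1.13, and none of the 5 was called in intercaruncular tissue. CB220965 differed by -0.47 and -0.23 and was not called. Its caruncular difference had an adjusted p of 0.00280 in limma but was below the 1.5-fold limit. MSTN tracked OXTR more closely in cyclic cows (r = 0.94 in caruncular and 0.91 in intercaruncular tissue) than in pregnant cows (0.54 and 0.76), a difference that was not tested. Over 44 samples without the step on group means, SEMA5B, a semaphorin (0.83), and CDA, cytidine deaminase (0.82), joined the most alike.

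The lowest correlations within groups were those of KCNIP4, a potassium channel-interacting protein (-0.63), NGFR, the low-affinity nerve growth factor receptor (-0.63), a probe named PGD whose description names KIF1B (-0.63), and RGS2 (-0.61). RGS2 speeds the shut-off of Gq, the G protein through which OXTR signals. RGS2 rose by 1.13 in caruncular tissue (adjusted p = 0.0193 in limma), and its intercaruncular difference was 0.60 (adjusted p = 0.111 in limma). In fertile against sub-fertile cows RGS2 was 1.07 higher in caruncular tissue (adjusted p = 0.337 in limma) and 1.04 higher in intercaruncular tissue (adjusted p = 0.138 in limma). KCNIP4 rose in caruncular tissue by 0.94 (adjusted p = 0.0251 in limma). NGFR differed by -0.57 there, below the 1.5-fold limit.

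Genes next to OXTR on chromosome 22 of ARS-UCD2.0 did not share its size of change. The reference table lists SETD5, THUMPD3, SRGAP3 and RAD18 on one side and CAV3, SSUH2, LMCD1 and GRM7 on the other, a set taken after the values of OXTR were known. RAD18, a DNA repair ligase next to OXTR, differed by -0.25 in caruncular and -0.38 in intercaruncular tissue and was not called. Its intercaruncular difference had an adjusted p of 0.0205 in limma but was below the 1.5-fold limit. CAV3, the muscle caveolin that lies within the span of OXTR in this table, did not pass the filter on signal (mean 17.7 units). LMCD1, a LIM-domain protein, fell by 0.67 in caruncular tissue (adjusted p = 0.00982 in limma), and its intercaruncular difference was -0.57, below the 1.5-fold limit. SETD5, THUMPD3 and SRGAP3 differed by between -0.15 and 0.22 and were not called, GRM7 did not pass the filter, and no probe was found for SSUH2.

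Of 37 other genes of oxytocin signalling, 31 passed the filter, and their counts below stand beside 9.99% of all probes called in caruncular and 7.24% in intercaruncular tissue. In caruncular tissue 1 rose (RGS2) and 1 fell, CAV1, the scaffold of caveolae, by 0.63 (adjusted p = 0.0168 in limma). In intercaruncular tissue none rose, and 1 fell, the receptor kinase GRK5, by 0.69 (adjusted p = 0.00155 in limma). The median difference of the 31 genes was -0.11 and -0.12, against -0.04 and -0.01 over all probes. The ligand gene OXT differed by -0.12 and -0.06 and the Gq subunit GNAQ by 0.50 and 0.38, none of them called. AVPR2, a vasopressin receptor, differed by 0.03 and -0.30 and was not called. The related receptors AVPR1A and AVPR1B passed the signal filter in 0 of 44 samples.

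In the prostaglandin list 20 of 30 genes passed the filter, of which 2 rose in each tissue, 3 fell in caruncular and 2 fell in intercaruncular tissue, beside 9.99% and 7.24% of all probes called. PLA2G4A, the phospholipase that releases arachidonic acid, rose by 0.62 (adjusted p = 0.0294 in limma) and 0.69 (adjusted p = 0.0273 in limma). CBR1, a carbonyl reductase, rose by 0.80 and 0.78. PTGS2, the inducible cyclooxygenase, differed by -0.03 and -0.33 and was not called. AKR1B1, a prostaglandin F synthase of bovine endometrium, fell by 0.74 in caruncular tissue (adjusted p = 0.0264 in limma), and its intercaruncular difference was -0.24 (adjusted p = 0.332 in limma). AKR1C4, another aldo-keto reductase, fell by 0.96 in caruncular tissue, where the prostaglandin transporter gene SLCO2A1 fell by 0.90. SLCO2A1 fell by 1.00 and PTGES, prostaglandin E synthase, by 0.91 in intercaruncular tissue. A second SLCO2A1 probe differed by -0.62 (adjusted p = 0.0722 in limma, not called) and -0.84 (adjusted p = 0.0291 in limma). The prostaglandin F receptor gene PTGFR passed the signal filter in 3 of 44 samples and was not tested. The list median was -0.18 and -0.24, against -0.04 and -0.01 over all probes.

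Among the hormone receptors, ESR1, oestrogen receptor alpha, fell by 0.96 in caruncular tissue (adjusted p = 0.00232 in limma) and by 0.86 in intercaruncular tissue (adjusted p = 0.00287 in limma). Its caruncular ratios were 0.59 to 2.06 in cyclic and -0.62 to 1.23 in pregnant cows, and its intercaruncular ratios were 0.49 to 1.59 and -0.71 to 1.10, so that the states overlapped in both. PGR, the progesterone receptor, differed by -0.23 and -0.28 and was not called. Of the 29 tested genes of the hormone receptor list, 1 rose in each tissue (LIFR, the leukaemia inhibitory factor receptor, by 0.77 and 0.87) and 1 in caruncular and 2 in intercaruncular tissue fell, the second being PPARG by 0.89. These counts, and those of the promoter factors, stand beside 9.99% and 7.24% of all probes called, and the receptor counts lay near or at those shares. Of 24 tested factors proposed to act on the OXTR promoter, 3 rose in caruncular tissue: IRF1 by 1.22 (adjusted p = 0.000150 in limma), FOSL1 by 0.96 and FOSL2 by 0.65. ESR1 was the 1 that fell. IRF1 rose by 0.66 in intercaruncular tissue (adjusted p = 0.00359 in limma), and IRF2, a relative of IRF1 that can repress transcription, differed by 0.38 (adjusted p = 0.0571 in limma) and 0.06 (adjusted p = 0.739 in limma).

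Interferon-response genes rose almost throughout. Of 50 tested, 45 rose in caruncular and 44 in intercaruncular tissue and none fell, with median differences of 2.62 and 2.08. Over all probes 5.77% and 3.99% were called as higher. The antiviral genes RSAD2, MX2, IFIT3 and USP18, a deconjugase of ISG15, rose by 5.46, 4.90, 4.57 and 4.40 in caruncular tissue. The ubiquitin-like modifier gene ISG15 rose by 3.13 and 2.48, the antiviral gene MX1 by 3.28 and 2.50, and OAS2 by 3.82 and 2.90. OAS1 passed the signal filter in 15 of 44 samples and was not tested. The receptor subunits IFNAR1 and IFNAR2 were not called, with differences of -0.26 and -0.04 in caruncular and -0.26 and -0.35 in intercaruncular tissue.

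**Figure D5:**
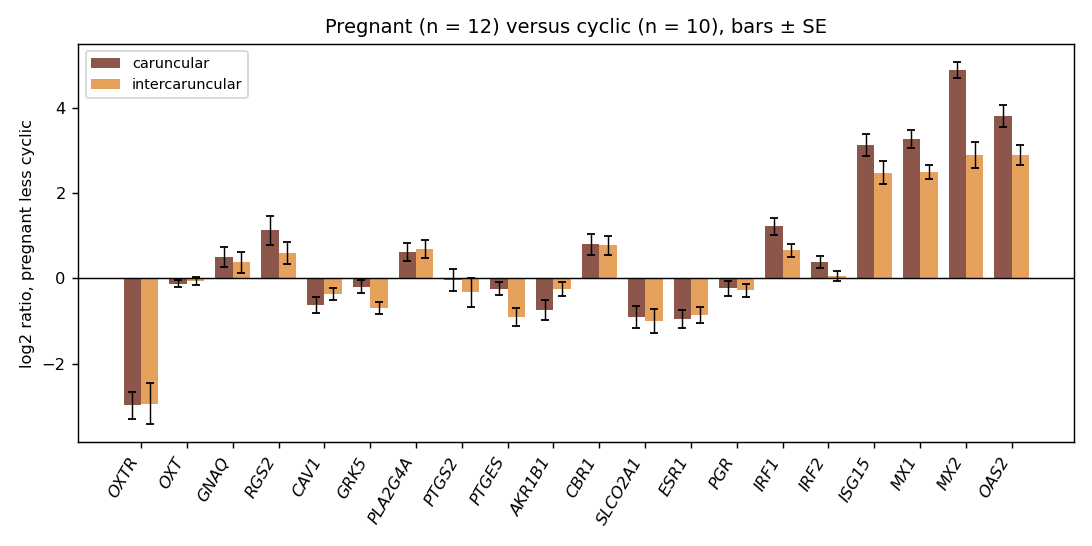
The difference in log2 ratio between pregnant and cyclic cows (y axis) is shown for OXTR and genes of its signalling, prostaglandin synthesis, hormone receptors and the interferon response, in caruncular (brown) and intercaruncular tissue (orange), with ± 1 SE. OXTR has the largest negative bars and the interferon-response genes ISG15, MX1, MX2 and OAS2 the tall positive ones, while PTGS2 and PGR stay near 0.

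Within a state, no gene of this set was related to OXTR beyond the adjustment for the family. Over 12 genes, both tissues and both states, 48 relations were computed, of which 8 had an unadjusted p under 0.05 by Pearson's and 9 by Spearman's coefficient, and none after adjustment (lowest adjusted p = 0.0931). Among pregnant cows the sign was mostly negative for the interferon-pathway genes: 8 of 9 in caruncular tissue (r from -0.68 to 0.50) and 7 of 9 in intercaruncular tissue (r from -0.60 to 0.57). The exceptions were IFNAR1 in both tissues and MX2 in intercaruncular tissue. Among cyclic cows 1 of 9 and 3 of 9 were negative. The genes were measured in the same cows, so their signs are not separate observations. The share of negative signs over all probes is not given here, so the counts are a description only. IRF1 in caruncular tissue of pregnant cows gave r = -0.68 (permutation p = 0.0161, adjusted 0.289) and rho = -0.55 (permutation p = 0.0712, adjusted 0.265), with r = -0.45 without the 2 farthest cows. In these relations the farthest cows are those farthest from the median of the partner gene, not of OXTR. The largest was PTGS2 in intercaruncular tissue of pregnant cows, with r = 0.79 (permutation p = 0.00194, adjusted 0.0931), rho = 0.78 (permutation p = 0.00410, adjusted 0.175) and r = 0.59 without the 2 farthest cows. The cow with the highest intercaruncular OXTR also had the highest PTGS2 of that group, at 1.19. PTGS2 in caruncular tissue of pregnant cows gave r = 0.02 (permutation p = 0.958), and ESR1 in caruncular tissue of cyclic cows gave r = 0.64 (permutation p = 0.0481, adjusted 0.289), with r = 0.45 without the 2 farthest cows.

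Cell type markers moved with pregnancy too, and their counts stand beside 4.21% of all probes called as lower and 5.77% as higher in caruncular, and 3.25% and 3.99% in intercaruncular tissue. Of 11 tested smooth muscle genes 5 fell in both tissues (ACTA2, ACTG2, CNN1, TAGLN and MYH11), with median differences of -0.63 and -0.56. The mean level of the list ran from -0.28 to 0.93 in cyclic and -1.26 to 0.57 in pregnant caruncular samples, and from -0.60 to 0.55 and -1.49 to 0.09 in intercaruncular samples. In intercaruncular tissue the pregnant cow with the highest smooth muscle mean (0.09) was also the lowest in OXTR (-3.88), and the cyclic cow with the lowest (-0.60) had an OXTR ratio of 0.94. In caruncular tissue the pregnant cow with the highest mean (0.57) had an OXTR ratio of -1.23, near the top of its group (-3.59 to -1.11). The caruncular cyclic cow with the lowest mean (-0.28) had an OXTR ratio of 0.69. Of 14 epithelial genes, 2 rose and 4 fell in caruncular tissue and 3 rose and 1 fell in intercaruncular tissue. KRT7, an epithelial keratin, fell by 2.07 and 0.75, while the adhesion gene CDH1 rose by 1.02 and 0.71. The epithelial means ran from -0.99 to 0.14 in cyclic and -1.39 to 0.08 in pregnant caruncular samples, and from -0.44 to 0.13 and -0.32 to 0.48 in intercaruncular samples. Of 9 endothelial genes 4 fell in each tissue. Of 10 stromal genes 1 rose and 1 fell in caruncular and 3 fell in intercaruncular tissue, and of 10 leukocyte genes 1 rose in each. All smooth muscle genes but LMOD1 and all epithelial genes passed the filter, and of 18 conceptus genes 3 did, none of them called. The part of these markers in the OXTR difference was not tested.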

How the data were processed

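Total RNA of caruncular and intercaruncular endometrium was amplified, labelled with Cy5 and hybridised with a Cy3-labelled pool of all samples to Agilent long-oligonucleotide arrays, without dye swap. The authors read the images with Agilent Feature Extraction (9.5.3.1 per the file headers), which subtracted background, flagged outlier spots and normalised the dyes by LOWESS. The deposited scanner files hold signal intensities and a log10 ratio per spot, and the deposited matrix holds log2 ratios. The direction was Cy5 over Cy3, and at OXTR the matrix lay within 0.0118 of the scanner values on the log2 scale (column medians from -0.028 to 0.059).

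Here log10 ratios were turned to log2, averaged over the unflagged spots of a probe and centred on the array median, which was already 0 on every array (between 5.30% and 16.1% of probes had a ratio of exactly 0). The repeat arrays of 4 caruncular samples were averaged with the first, so that a cow is the replicate. Probes well above background and with at least 80 units of Cy5 signal in at least 22 of 44 samples were tested (14690 probes). limma 3.58.1 (lmFit, eBayes) in R 4.3.3 was run over all of them with Benjamini-Hochberg adjustment. Calls needed an adjusted p under 0.05 and, against cyclic cows, a 1.5-fold change. Permutation tests (scipy 1.17.1) were exact where a group held under 10 cows and otherwise drew 100000 resamples. Array fits were tested on simulated data. Both tissues came from the same cow, and the cow as a block is therefore an alternative. Within cyclic and within pregnant cows, OXTR in the tissues of a cow correlated as given in the text. The number of arrays limits the precision.

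The gene, the gene lists and the tests were chosen with earlier results of these data known. Named list genes are the up to 4 largest risers and 4 largest fallers called in caruncular endometrium, together with a set of receptor and interferon genes named whatever their values. GRK5, PTGES and PPARG, called in intercaruncular endometrium alone, TFAP2C and the genes next to OXTR fall outside that rule and were named after their values were seen. The 8 probes of highest and 4 of lowest r within groups and the 4 of highest r over all samples were named too. A gene with several probes was read from the one with the highest mean signal. Alternatives were normexp (offset 50) with loess, no centring, no or a stricter filter, the matrix and a t-test for unequal variances. Further ones were slide, scan date and cow as blocks, single arrays of repeated samples, covariates and leaving out each cow. No OXTR sequence was at hand, so none is shown.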

Additional observations from a re-analysis of the deposited data

Results flagged for a closer look

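No OXTR value stood apart by Dixon's test in the groups where it was run, 78 groups of 5 to 10 cows. OXTR was tested in the cyclic groups and the classes of embryo size and fertility, and the other named genes in the cyclic groups. The whole pregnant groups of 12 cows, with the intercaruncular OXTR value of 1.03, were not tested. In 9 of the 78 a named gene had a cow apart from the others, where chance marks about 1 in 20 groups. In caruncular cyclic cows the lowest value was -2.64 for KCNIP4, -1.19 for IRF2 and -0.38 for CAV1, and the highest was -1.95 for ISG15 and 0.12 for CBR1. In intercaruncular cyclic cows the highest value was 0.61 for RGS2, and the lowest was -2.90 for MX1, -3.87 for MX2 and -3.34 for OAS2. The pregnancy effect of MX2 differed between the tissues by 1.99 (adjusted p = 0.0157 in limma, 4.90 in caruncular and 2.90 in intercaruncular tissue). This call was lost when slides were fitted as a random block.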

How the results depend on the processing

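Of 314 alternative values of the 15 OXTR results, 304 kept their direction and their side of the threshold. This count is not a measure of robustness, since 158 of the values left out a single cow. Leaving out the centring or changing the filter could not alter an OXTR difference. For the tissue, embryo size and fertility comparisons, the same side means that OXTR stayed uncalled. With the slide as a fixed block OXTR was -2.16 in caruncular and -0.44 in intercaruncular tissue, both past no threshold, and 58 and 128 probes were called in place of 1467 and 1064. With the slide as a random block 653 intercaruncular probes were called, and the tissue difference in cyclic cows turned to 0.063. The t-test for unequal variances gave -3.23 and -3.14 for small embryos in caruncular and intercaruncular tissue, with no call. The agreement of tissues in cyclic cows fell to 0.44 without the 2 farthest cows (permutation p = 0.280). The cause was not tested. When cow was fitted as a fixed replicate block for its paired tissues, the tissue difference was -0.12 in cyclic and -0.16 in pregnant cows and the difference of effects -0.04 (adjusted p = 0.597, 0.610 and 0.978 in limma), and no call of OXTR changed under this block. Without the pregnant cow of highest intercaruncular level, left out after its values were seen, the tissue difference in pregnant cows was 0.077 and the difference of effects 0.20.

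Leaving out each cow moved the pregnancy difference from -3.15 to -2.84 in caruncular and from -3.22 to -2.77 in intercaruncular tissue. It moved embryo size from 0.13 to 0.75 and from -0.15 to 0.66 (-0.15 without that cow, -0.09 without the fertile cow of lowest OXTR), fertility from -1.17 to -0.88 and from -1.96 to -1.11, small embryos against cyclic cows from -3.56 to -2.94 and from -3.47 to -2.72, and large embryos from -2.98 to -2.66 and from -3.29 to -2.58.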
